A study of Mus musculus with 2 samples.

Results

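miR-191 and miR-425 are a pair of mouse microRNAs cut from neighbouring hairpins on the plus strand of chromosome 9. Their hairpin genes are Mir191 and Mir425. They were read from the 1973 microRNA genes of each count table as 2 rows, chosen by gene name. Rows carry gene identifiers, and that of Mir425 has a row. The identifier of Mir191 has none. The reads of the Mir191 hairpin were counted at Gm24083, a row annotated on the strand opposite to it. The strand counts of that row chose it, so they are given here as a description.

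The libraries were made from small RNA, of a size range below 30 per the labels, of 2 single forebrains of strain B6NCrl mice at postnatal day 0. Replicate 2 was the whole forebrain of pup 3 and replicate 1 that of pup 1. The pups form 1 group with no treatment, allele or control group named, their sex was not collected, and the labels list the same donor record for both. There is no contrast between conditions, and the results are levels and the differences between these pups.

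MicroRNAs are short RNAs that guide Argonaute proteins to messenger RNAs, mostly through the seed, the bases 2 to 8 from the 5′ end, and lower the output of those messages. A hairpin is cut out of a longer primary transcript by Drosha and then by Dicer, so neighbouring hairpins can come from the same primary transcript. miR-191 is expressed in many tissues and has often served as a reference for scaling in qPCR studies. In rodent hippocampal neurons it has been linked to the remodelling of dendritic spines. Human miR-425 is known to repress the message of NPPA, the precursor of atrial natriuretic peptide.

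The mature products are shown because each seed sets which messages the microRNA can pair with. They were copied from RefSeq on GRCm38.p6, and both members matched. Capitals mark the seed, and all lie on the plus strand of chromosome 9.
mmu-miR-191-5p: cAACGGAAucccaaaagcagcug
mmu-miR-191-3p: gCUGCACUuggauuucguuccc
mmu-miR-425-5p: aAUGACACgaucacucccguuga
mmu-miR-425-3p: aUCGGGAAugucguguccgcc

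The pair share a transcript neighbourhood but no seed. The 5p products are both 23 nucleotides long and have the same base at 5 of the 23 positions. Among the 1738 mature mouse sequences of the RefSeq table, none outside Mir191 had the seed AACGGAA of miR-191-5p or the seed CUGCACU of miR-191-3p. None outside Mir425 had the seed UCGGGAA of miR-425-3p. The seed AUGACAC of miR-425-5p occurred once more, in miR-489-3p, which is printed because it is identical to miR-425-5p over the first 8 bases and lies on the minus strand of chromosome 6.
mmu-miR-489-3p: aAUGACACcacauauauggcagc

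Mir489, the hairpin of that relative, had 4 reads in pup 3 and 10 in pup 1, against 10896 reads of Mir425 in pup 3 and 8160 in pup 1. Almost all reads of hairpins that carry the seed of miR-425-5p were therefore counted at Mir425, leaving aside reads that mapped to several places.

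The hairpins are shown with both arms, with the mature products in capitals, because a count here pools every read of the hairpin.
Mir191 hairpin: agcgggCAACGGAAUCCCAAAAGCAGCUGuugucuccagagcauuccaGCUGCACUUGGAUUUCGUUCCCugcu
Mir425 hairpin: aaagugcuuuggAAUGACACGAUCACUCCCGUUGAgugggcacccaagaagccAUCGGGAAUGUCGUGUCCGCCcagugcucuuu

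The Mir191 hairpin spans 74 bases at chr9:108568319-108568392 and the Mir425 hairpin 85 bases at chr9:108568777-108568861 (GRCm38, the assembly that mm10 names). Their GC contents were close, at 54.05% in Mir191 and 54.12% in Mir425, against a median of 51.7% over 1005 RefSeq mouse hairpins. The lowest folding energy computed with RNAfold was -0.473 kcal/mol per base for Mir191 and -0.373 for Mir425, on either side of the median of -0.406 over those hairpins. The longest stretch the pair have in common is 5 bases. Neither had a stretch of 20 bases in common with an annotated hairpin elsewhere, while 929 of 1894 rows with a hairpin sequence did. Of the 433 genes with at least 10 reads in each pup, 94 had such a stretch. Reads that map to several places were not assigned to genes, so the members were not among the hairpins for which such copies could lower the count.

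The location in Dalrd3 depended on the annotation. Human DALRD3 is known as a partner of a methyltransferase that modifies arginine transfer RNAs. RefSeq places the Dalrd3 gene at chr9:108567484-108572773 on the plus strand, a span that holds both hairpins, with Mir191 starting 835 bases inside it. GENCODE M21 starts Dalrd3 at 108569886, which is 1024 bases beyond the end of Mir425. A promoter window of 300 bases listed for RefSeq Dalrd3, at chr9:108569642-108569941, also lies beyond both hairpins and covers that start. In GENCODE M21 both hairpins lie instead in the noncoding gene 4833445I07Rik at chr9:108567533-108569174 on the same strand. This gene has 2 annotated transcripts. Both hairpins lie in the exon of the long unspliced transcript. In the spliced one, Mir191 lies in the intron from 108568181 to 108568483, and the last exon ends 2 bases before Mir425. No count of Dalrd3 or of 4833445I07Rik was analysed here, since the tables hold microRNA genes.

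**Figure D1:**
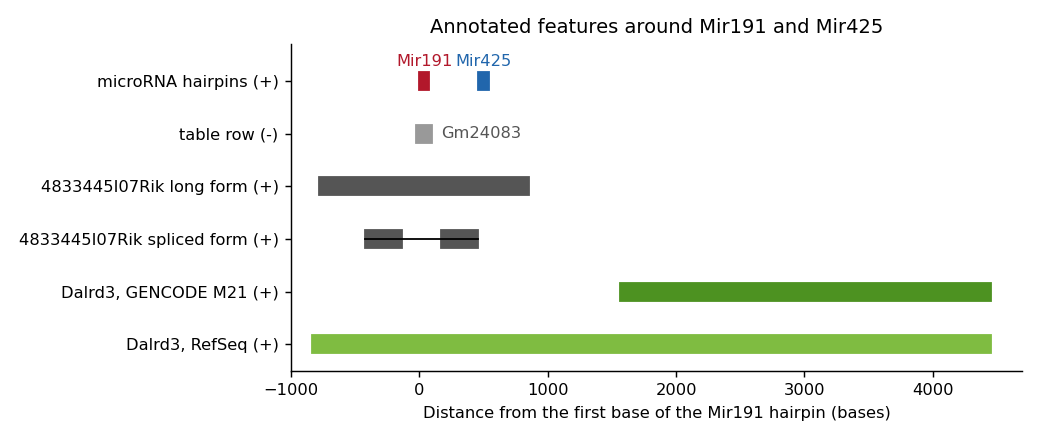
Map of the annotated features around the pair on GRCm38, with the distance from the first base of the Mir191 hairpin in bases on the horizontal axis and the strand of each feature in parentheses. The hairpins start 458 bases apart, the row Gm24083 covers Mir191 from the other strand, and the Dalrd3 gene contains the hairpins in RefSeq but not in GENCODE M21.

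The row that stands for Mir191 had reads on the other strand only. Gm24083 (ENSMUSG00000092915.1) is annotated on the minus strand at chr9:108568295-108568414 and extends 24 bases before and 22 bases beyond the Mir191 hairpin. All of its reads, 22765 in pup 3 and 26780 in pup 1, lay on the strand opposite to the row, which is the strand of Mir191. The 0 reads on the row's own strand allow a share of up to 0.0132% of its reads in pup 3 and 0.0112% in pup 1, taking 3 counts as the limit. Mir425 (ENSMUSG00000065579.1) had all of its 10896 reads in pup 3 and 8160 reads in pup 1 on its own strand. The 0 reads opposite to it allow up to 0.0275% in pup 3 and 0.0368% in pup 1.

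Rows of this kind were few. Of the 433 genes with at least 10 reads in each pup, 11 (2.54%) had 90% or more of their reads on the opposite strand in both, and each of the 11 lay across a named microRNA of the other strand. By mean level Gm24083 was number 4 of the 11. It followed Gm25252 at 6089 CPM, Gm25927 at 5467 CPM and Gm24321 at 3051 CPM, which lie across Mir376a, Mirlet7e and Mir409. The other rows with 1000 CPM or more were Gm25301 at 2004 CPM across Mir378a, Mir497b at 1198 CPM across Mir497 and Gm25750 at 1136 CPM across Mir380. Gm24083 alone held 15.5% of all reads counted opposite to a gene in pup 3 and 11.0% in pup 1. A search of the tables by the identifier of Mir191 would return no row. A count limited to the sense strand would return 0 reads for Gm24083.

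Both hairpins had many reads, and more were counted at Mir191 than at Mir425 in each pup. CPM is the number of reads of a gene per 1000000 reads assigned to microRNA genes. Each read of these libraries spans one short RNA, so counts were not divided by hairpin length, and dividing by the common length of the 5p products would leave their ratio unchanged. In a piece of bulk tissue, fewer cells that express a microRNA and less of it per cell cannot be told apart.

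Mir191 stood at 2965 CPM in pup 3 (95% exact binomial interval 2926 to 3003) and at 2963 CPM in pup 1 (2928 to 2999). Its values overlapped within counting error. The mean was 2964 ± 0.965 CPM (SD, n = 2), and the hairpin's share of assigned reads was 0.2965% for pup 3 and 0.2963% for pup 1.

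Mir425 stood at 1419 CPM in pup 3 (1392.5 to 1446) and at 903 CPM in pup 1 (883 to 923). The value was higher in pup 3, and the counting intervals of the pups did not overlap. The mean was 1161 ± 365 CPM (SD, n = 2), and the hairpin's share of assigned reads was 0.142% for pup 3 and 0.0903% for pup 1. These intervals cover counting error only.

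By mean CPM, Mir191 was number 64 of the 1973 genes and Mir425 number 96, where the median of the 433 genes with at least 10 reads in each pup was 97.3 CPM. Mir191 was number 64 in pup 3 and number 66 in pup 1. Mir425 was number 91 in pup 3 and number 109 in pup 1. Next above Mir191 came Mir652 at 2980 ± 339 CPM and Mir379 at 2964 ± 976 CPM, and next below it Mir130b at 2961 ± 172 CPM and Mir598 at 2937 ± 750 CPM. Next above Mir425 came Mir129-2 at 1419 ± 734 CPM and the row Mir497b, and next below it the row Gm25750 and Mir138-1 at 1086 ± 451 CPM (each SD, n = 2). The means of these 8 neighbours differed from the member beside them by less than their own SD, so the order of neighbours is not firm.

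**Figure D2:**
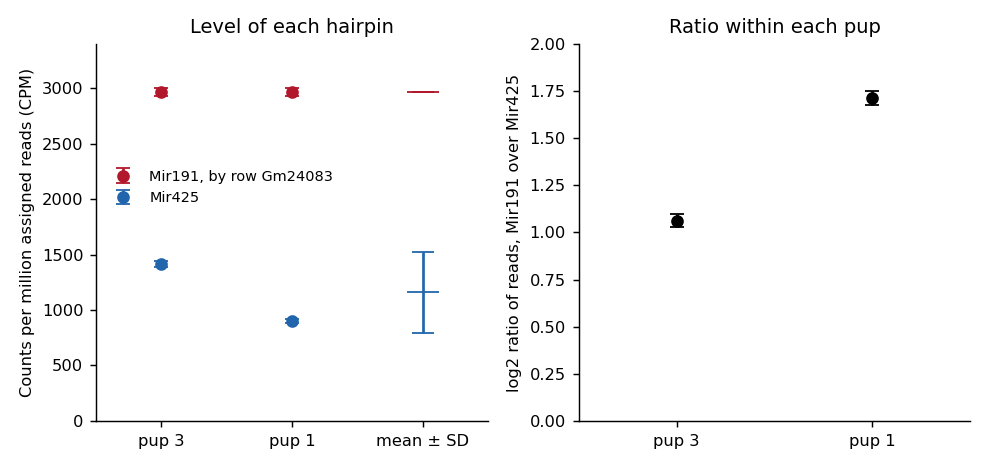
The left panel plots the level of each hairpin in CPM for pup 3 and pup 1, with 95% exact binomial intervals, and the mean with its SD over the 2 pups. The right panel plots the log2 ratio of Mir191 reads over Mir425 reads in each pup, with 95% exact binomial intervals. Mir191 was level between the pups in CPM while Mir425 was higher in pup 3, so the ratio was lower in pup 3.

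The balance within the pair differed between the pups. In pup 3, 2.09 reads of Mir191 were counted for each read of Mir425 (95% exact binomial interval 2.04 to 2.14). In pup 1 the ratio was 3.28 (3.20 to 3.36). Mir425 therefore made up 32.4% of the pair's reads in pup 3 (31.9 to 32.9) and 23.4% in pup 1 (22.9 to 23.8). On the log2 scale the ratio of Mir191 over Mir425 was 1.06 in pup 3 and 1.71 in pup 1, a mean of 1.39 ± 0.46 (SD, n = 2) and a difference of -0.65. Both values come from the same library in each pup, so this difference does not depend on how the libraries are scaled to each other. It is a ratio of reads and not of molecules, since how well each sequence was captured in the libraries is not known. The labels name no spiked standard.

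The sum of the pair was higher in pup 3, as Mir425 was. Together the hairpins had 33661 reads in pup 3, or 4384 CPM, and 34940 reads in pup 1, or 3866 CPM. The mean was 4125 ± 366 CPM (SD, n = 2). This SD is close to the 365 CPM of Mir425 alone, since Mir191 was level in CPM.

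Across the pups, Mir425 was higher in pup 3 and Mir191 differed little. Libraries were scaled by TMM, edgeR's trimmed mean of ratios, before pup 3 was divided by pup 1, and a gene was counted as apart at 1.5-fold or more. Mir425 was 1.81-fold higher in pup 3, or 0.85 on the log2 scale (interval from counting error 0.81 to 0.90), and so lay past 1.5-fold. Mir191 had a ratio of 1.15, or 0.20 on the log2 scale (0.18 to 0.23), and did not. Each pup is a single library of the same group, so these ratios compare libraries and carry no p-value.

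The ratio of Mir425 lay within the range of the other genes. Of the 433 genes with at least 10 reads in each pup, 147 (33.9%) lay at least 1.5-fold apart, 80 (18.5%) higher and 67 (15.5%) lower in pup 3. The absolute log2 ratio had a median of 0.38 over these genes. It was larger than that of Mir425 in 75 genes (17.3%), of which 44 (10.2% of the 433) were higher in pup 3, and larger than that of Mir191 in 305 (70.4%). When the libraries were scaled by their total assigned reads instead, the median log2 ratio of all 433 genes moved by -0.20, and 54 genes were at least 1.5-fold higher and 101 lower. By that scaling Mir425 was 1.57-fold higher in pup 3, still past 1.5-fold. The ratio of Mir191 was then 1.00, with a log2 interval from -0.02 to 0.03 that spans 0. Relative to the median gene, the log2 ratio of Mir191 was 0.197. Scaling cannot change this value, because it shifts all genes alike.

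**Figure D3:**
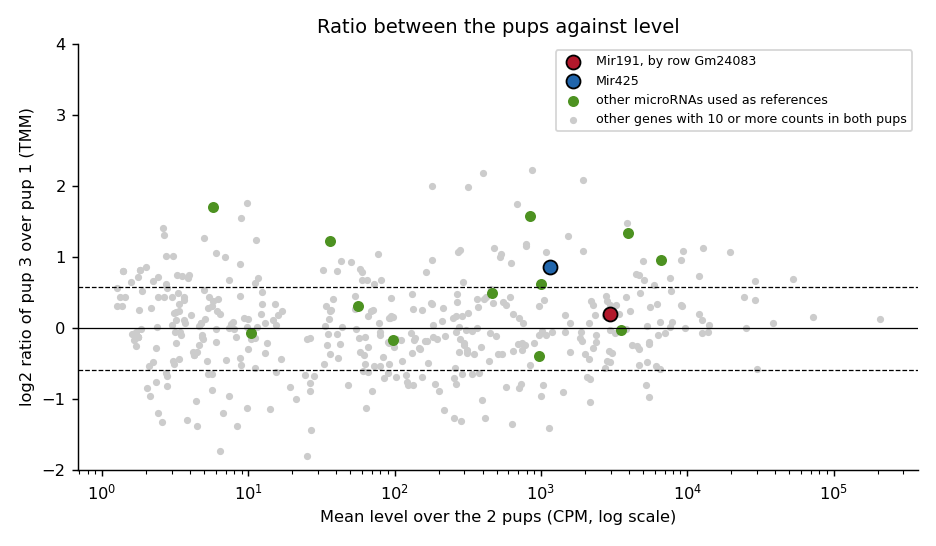
Each point is a microRNA gene with at least 10 reads in each pup, with its mean level in CPM on a log axis and its log2 ratio of pup 3 over pup 1 after TMM scaling on the vertical axis. Dashed lines mark 1.5-fold, and green points are the hairpins of the other microRNAs used as references. Mir191 lies near 0 at 0.20 and Mir425 above the upper line at 0.85, within the range of genes of like level.

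The genes most like each member in level were named by the distance of log2(CPM + 1) over the 2 pups. For Mir191 these were Mir130b at a distance of 0.0834, Mir125b-2 at 0.151 and Mir7b at 0.162. Mir130b stood at 3083 CPM in pup 3 and 2840 CPM in pup 1, and Mir7b at 3017 CPM in pup 3 and 2653 CPM in pup 1. Mir125b-2, a relative of the lin-4 microRNA of worms, stood at 2719 CPM in pup 3 and 2792 CPM in pup 1. For Mir425 the nearest were Mir138-1 at a distance of 0.235, Mir423 at 0.326 and Mir92-1 at 0.365. Mir138-1, whose product is known to limit the size of dendritic spines, stood at 1406 CPM in pup 3 and 767 CPM in pup 1. Mir423 stood at 1139 CPM in pup 3 and 855 CPM in pup 1, and Mir92-1 of the miR-17-92 polycistron at 1116 CPM in pup 3 and 979 CPM in pup 1. With 2 samples, likeness is mainly likeness of level. Mir191 itself lay at a distance of 2.02 from Mir425.

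Since miR-191 often serves as a reference for scaling, its ratio was set beside those of other microRNAs used in the same way. Of the 14 hairpin genes in this list, 13 had a row and all 13 reached 10 reads in each pup. The microRNAs miR-103, miR-16, miR-26a and miR-24 entered it by more than 1 hairpin, so its members are not all separate references. At 1.5-fold, 6 of the 13 were higher in pup 3, 0 were lower and 7 lay between, beside 18.5% of all 433 genes higher and 15.5% lower. The list had a median log2 ratio of 0.49, against 0.0047 over all 433 genes. By total assigned reads 5 were higher and 1 was lower, with a median of 0.29. The log2 ratio ranged from -0.40 for Mir186, in the host gene Zranb2, to 1.71 for Mir103-1. The latter had only 66 reads in pup 3 and 27 in pup 1, with an interval from counting error of 1.06 to 2.43. Mir191, with a log2 ratio of 0.20, lay among the 7, as did Mir484 with -0.03 and Mir25 of the Mcm7 host with 0.49.

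The members past 1.5-fold included Mir93 at 1.94-fold, Mir423 at 1.53-fold, Mir16-1 at 2.52-fold and Mir16-2 at 3.00-fold. Mir16-1 and Mir16-2 belong to a family known to restrain the cell cycle. Of the 13 rows, 7 had a stretch of 20 bases in common with another hairpin, Mir16-1, Mir16-2 and both Mir103 hairpins among them, so their counts are uncertain. Over all 433 genes, those past 1.5-fold with such a stretch were more often higher than lower, so 18.5% is not a matched share for this list. By total assigned reads Mir423 was 1.33-fold higher and no longer past 1.5-fold, while Mir93 was 1.69-fold higher.

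How far neighbouring hairpins kept their balance was described over all pairs of adjacent hairpins on one strand that start within 1000 bases. Reads were taken from the strand of each named microRNA, and both hairpins had at least 10 reads in each pup. Mir191 and Mir425 start 458 bases apart, with 384 bases between them. Their difference of -0.65 between the pups was, in absolute size, number 28 of 79 such pairs. The other 78 pairs had a median absolute difference of 0.45, from 0.0019 for Mir302a with Mir302d to 1.89 for Mir124a-1 with Mir3078. Both extremes rest on few reads. Mir302a had 280 reads in pup 3 and 401 in pup 1, and Mir302d had 244 in pup 3 and 349 in pup 1. Mir124a-1 had 113 in pup 3 and 45 in pup 1, and Mir3078 had 75 in pup 3 and 112 in pup 1. The pair was thus neither among the steadiest nor among the most shifted. Pairs that share a hairpin are not independent of each other.

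Mir191 had more reads than Mir425 in both pups. In 69 of the 79 pairs the same partner was ahead in both pups. At 1000 or more reads of each hairpin in each pup, a setting chosen after the data were seen, 13 of 31 other pairs (41.9%) had a larger difference than Mir191 and Mir425. Without hairpins that have a stretch in common with another, also chosen after the data were seen, 16 of 45 (35.6%) did. The share was 34.6% over all 78 other pairs.

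**Figure D4:**
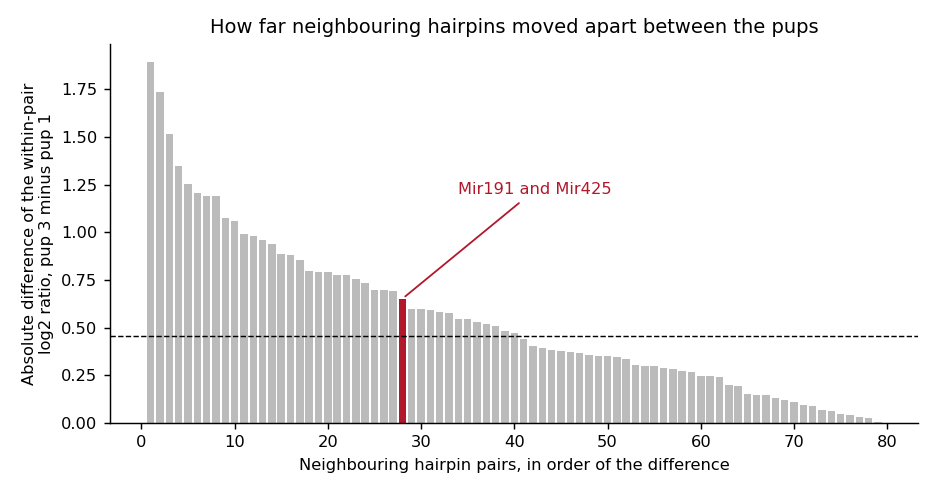
Each bar is a pair of adjacent hairpins, ordered by the absolute difference between pup 3 and pup 1 in the log2 ratio within the pair. The dashed line is the median of 0.45 over the other 78 pairs, and the bar of Mir191 with Mir425 stands at 0.65, number 28 of 79.

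Neighbouring hairpins inside protein-coding hosts gave 5 such pairs from the list used here. In the Mcm7 host, which encodes a subunit of the replicative helicase, Mir93 over Mir106b had a log2 ratio of 0.55 in pup 3 and -0.51 in pup 1, so the partner with more reads changed. Mir25 over Mir93, of the same host, had -4.02 in pup 3 and -3.55 in pup 1, a difference of -0.47. In Smc4, which encodes a condensin subunit, Mir15b over Mir16-2 had -0.77 in pup 3 and 0.75 in pup 1, and Mir16-2 has a near copy in Mir16-1. In 2010111I01Rik, Mir23b over Mir27b had 3.30 in pup 3 and 2.71 in pup 1, a difference of 0.60. Mir27b over Mir24-1, of the same host, had 5.72 in pup 3 and 6.49 in pup 1, a difference of -0.77. Mir24-1 has no row of its own. It was read from the opposite strand of a row that lies across it, with only 92 reads in pup 3 and 104 in pup 1. These hairpins have near copies as well.

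The absolute difference of Mir191 and Mir425, 0.65, thus lay inside the range of these 5 pairs. Of the 10 hairpins in the list, 9 had a row of their own, of which 3 were at least 1.5-fold higher in pup 3, 0 were lower and 6 lay between, beside 18.5% of all 433 genes higher and 15.5% lower. Their median log2 ratio was 0.08, against 0.0047 over all 433 genes. By total assigned reads 3 were higher and 1 was lower, and the median was -0.12. Mir30e was 2.10-fold higher in pup 3 while Mir30c-1 of the same host, Nfyc, had a ratio of 0.986, with a near copy in Mir30c-2.

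The libraries were alike in depth and in the share of reads used. There were 18798326 reads for pup 3 and 22470992 for pup 1, and the share counted at microRNA genes was 40.8% for pup 3 and 40.2% for pup 1. The tissue label was checked against marker microRNAs. Of 15 brain markers, 14 had a row and 13 of these reached 10 reads in each pup, with a summed level of 51227 CPM in pup 3 and 39704 CPM in pup 1. Muscle markers summed to 83.9 CPM in pup 3 and 175 CPM in pup 1. All 4 were at least 1.5-fold lower in pup 3, beside 15.5% of all 433 genes. Among them, Mir208a had only 28 reads in pup 3 and 88 in pup 1, and Mir499 had 29 in pup 3 and 62 in pup 1. Blood markers summed to 733 CPM in pup 3 and 554 CPM in pup 1. Of the 4 with a row, 1 was at least 1.5-fold higher and 1 lower, beside 18.5% of all 433 genes higher and 15.5% lower. With Mir142 read at Mir142b, a row on the strand opposite to it, the blood markers summed to 1073 CPM in pup 3 and 803 CPM in pup 1. Of these 5, 2 were at least 1.5-fold higher, beside 18.5% of all 433 genes, or 1 by total assigned reads. This reading was also chosen after the data were seen. Markers of liver, gut and pancreas summed to 484 CPM in pup 3 and 543 CPM in pup 1, and the endothelial Mir126a stood at 36865 CPM in pup 3 and 40491 CPM in pup 1. No marker with a row was at 0 in both pups. Summed brain markers were thus higher in pup 3, as Mir425 was, and 6 of the 13 were at least 1.5-fold higher, or 4 by total assigned reads, beside 18.5% of all 433 genes. Most of the sum was Mir137. Without it, a setting chosen after the data were seen, the brain markers summed to 17632 CPM in pup 3 and 15358 CPM in pup 1. Of the 14 brain rows, 11 have a stretch in common with another hairpin. Over all 433 genes, those past 1.5-fold with such a stretch were more often higher than lower, so 18.5% is not a matched share for these rows. The part of the markers in the ratio of Mir425 was not tested.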

How the data were processed

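MicroRNA genes were counted in 2 libraries of 1 group. The authors made these counts of reads per gene from each library's alignment on mm10 with annotation M4, per the notes deposited beside each table. The tables have no heading, and 3 columns were read as both strands, the gene's strand and the opposite strand. In all 1973 genes the first equals the sum of the others. Which aligner and counter were used is not given in the sources used here. Another 4 tallies name no gene and stayed out of library sizes. Reads mapping to several places, 43.5% of the library of pup 3 and 43.0% of pup 1, are in no gene.

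Names and positions came from GENCODE M21 by identifier, which matched 1894 of 1973. The 79 others held 4 reads in pup 3 and 5 in pup 1. CPM, ranks and shares used the first column. Ratios between pups used counts with 0.5 added and TMM factors of edgeR 4.0.16 (0.933 for pup 3 and 1.07 for pup 1) over genes with 10 or more counts in each pup. Intervals are exact binomial at 95% and cover counting error only, as no molecular identifiers are named. No test between pups was run, since both belong to 1 group and the spread may be technical. The ratios and intervals were checked on simulated counts that varied by counting error only, so the check does not cover differences between animals. Hairpins were folded with RNAfold 2.7.2.

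The members and lists were chosen with earlier results of these data known. By rule the text names the 3 genes nearest to each member, the 2 next above and below it, list members, and opposite-strand rows of 1000 CPM or more. Alternatives were scaling by DESeq2 1.42.0 or by total counts, counts of 1 strand, other minimums and distances, and each pup alone. Software was Python 3.11.15 and R 4.3.3.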

Additional observations from a re-analysis of the deposited data

How the results depend on the processing

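Levels, ratios and counts were recomputed under the alternatives listed above. With all reads of the library in place of assigned reads as denominator, the mean was 1201 per 1000000 reads for Mir191 and 471 for Mir425. By total assigned counts, the log2 ratio of pup 3 over pup 1 was 0.00067 for Mir191 and 0.65 for Mir425. With 100 counts in both pups in place of 10, 94 of 292 genes were at least 1.5-fold apart, in place of 147 of 433, since fewer genes entered. From each pup alone, the level ran from 2963 to 2965 CPM for Mir191 and from 903 to 1419 CPM for Mir425. The log2 ratio within the pair ran from 1.06 to 1.71. For the members, the neighbouring pairs and the counts of genes or rows, the other alternatives left each result within the spread between pups, within its interval or within 1.5 times its count. No paired analysis was possible because the samples form 1 group. With 2 libraries, the spread between pups is poorly known, and neither arms nor isoforms of the hairpins can be told apart in these counts.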
